A study of Mus musculus with 16 samples.

Results

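The comparison described here is that of fibroblasts without the CH1 domain of CBP and p300 against fibroblasts that keep it, in vehicle alone. It used 4 of the 16 arrays of the study, 2 from triCH1 lines and 2 from control lines. Its members were the 9344 genes outside chromosomes X and Y that had a signal of at least 200 on at least 2 of these 4 arrays. The values are the deposited array signals, analysed as log2(signal + 50). The offset shrinks the differences of dim genes, so each fold given below is on the log2(signal + 50) scale.

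All cells were primary mouse embryonic fibroblasts from e14.5 embryos. The control line flox1 carried 1 conditional allele of CBP and the control line flox2 carried 1 conditional allele of p300. In triCH1flox1 both p300 alleles and 1 CBP allele had a deletion in CH1, and the other CBP allele was conditional. In triCH1flox2 both CBP alleles and 1 p300 allele had that deletion, and the other p300 allele was conditional. Every line, control or triCH1, was infected at passage 3 with an adenovirus that carries Cre, the recombinase that deletes conditional alleles, and was then expanded at least 100-fold. No line was therefore free of a deleted allele, and each genotype was a single line. Subconfluent cells received ethanol, the vehicle, under normal oxygen, and ethanol again after 30 min, and were lysed 3 h later. The same 4 lines were also given trichostatin A (TSA) at 100 ng/ml, which blocks histone deacetylases, dipyridyl (DP) at 100 µM, which binds iron and so stabilises HIF-1 alpha, or TSA followed by DP. Those arrays are used below only to see where the vehicle differences were met again.

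CBP (Crebbp) and p300 (Ep300) are related coactivators that acetylate histones and other proteins and are recruited to promoters and enhancers by many transcription factors. Their CH1 domain, also called TAZ1, is a zinc-binding module that holds the transactivation domains of HIF-1 alpha, CITED2, STAT2, RelA and other factors. In oxygenated cells HIF-1 alpha is hydroxylated and degraded, so a vehicle comparison looks at the level of genes before the hypoxia response is switched on. Embryonic fibroblasts are mesenchymal cells that divide in culture, secrete collagen and other matrix, and carry part of the contractile program of smooth muscle.

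To show the kind of sequence in which genes that stood apart on all 16 arrays begin, the promoters of 5 of them are given first. They are the largest vehicle differences among genes that stood apart on every array of the study and had an entry in the RefSeq promoter table (build GRCm38.p6): 3 that were lower in the triCH1 lines (Plac8, Kif26b, Igfbp5) and 2 that were higher (Ncapg2, Ccnb2). Each runs 5′ to 3′ from 250 bases before to 50 bases after the annotated start. Capitals mark matches, on either strand, to the core of the HIF site (ACGTG or GCGTG), the CCAAT box, and TTTGAA, the cell cycle homology element of mitotic genes. No match overlapped another.
Plac8, chr5:100572156-100572455, minus strand: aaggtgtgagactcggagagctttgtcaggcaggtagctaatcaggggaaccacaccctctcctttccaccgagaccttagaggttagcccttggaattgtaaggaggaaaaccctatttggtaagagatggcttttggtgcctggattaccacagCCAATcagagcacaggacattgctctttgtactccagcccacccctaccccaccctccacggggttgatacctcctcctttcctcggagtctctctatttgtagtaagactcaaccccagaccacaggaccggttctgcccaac
Kif26b, chr1:178528875-178529174, plus strand: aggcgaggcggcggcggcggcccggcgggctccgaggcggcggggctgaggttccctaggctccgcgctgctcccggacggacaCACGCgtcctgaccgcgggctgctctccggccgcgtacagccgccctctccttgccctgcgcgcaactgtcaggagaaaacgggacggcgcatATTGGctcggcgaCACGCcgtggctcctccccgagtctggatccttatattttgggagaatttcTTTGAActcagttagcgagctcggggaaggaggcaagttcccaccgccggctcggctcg
Igfbp5, chr1:72874816-72875115, minus strand: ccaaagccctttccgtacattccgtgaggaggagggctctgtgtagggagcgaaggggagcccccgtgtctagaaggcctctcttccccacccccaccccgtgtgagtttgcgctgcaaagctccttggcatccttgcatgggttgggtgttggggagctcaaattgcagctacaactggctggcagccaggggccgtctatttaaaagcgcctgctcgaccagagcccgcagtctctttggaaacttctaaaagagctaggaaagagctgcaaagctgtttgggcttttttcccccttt
Ncapg2, chr12:116405186-116405485, plus strand: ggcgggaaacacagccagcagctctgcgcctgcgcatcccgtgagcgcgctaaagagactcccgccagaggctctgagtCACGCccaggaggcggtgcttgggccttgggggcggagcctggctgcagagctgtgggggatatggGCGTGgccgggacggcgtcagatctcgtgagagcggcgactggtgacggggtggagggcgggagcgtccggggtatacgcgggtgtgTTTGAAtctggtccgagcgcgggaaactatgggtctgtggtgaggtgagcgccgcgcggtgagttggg
Ccnb2, chr9:70421505-70421804, minus strand: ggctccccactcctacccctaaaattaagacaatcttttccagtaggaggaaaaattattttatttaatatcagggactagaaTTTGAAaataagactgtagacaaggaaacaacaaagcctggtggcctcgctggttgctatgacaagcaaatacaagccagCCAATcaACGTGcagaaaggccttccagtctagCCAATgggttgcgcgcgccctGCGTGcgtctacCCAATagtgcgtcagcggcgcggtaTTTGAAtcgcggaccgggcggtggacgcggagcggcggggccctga
The Ccnb2 window held 3 CCAAT boxes, at bases -87, -54 and -21 from the start, and a TTTGAA at bases -167 and 5. Ncapg2 held a TTTGAA at base -18 and no CCAAT. Kif26b, a lower gene, held a TTTGAA at base -9 and a CCAAT match at base -73. Plac8 held 1 CCAAT, and Igfbp5 held none of the motifs searched. The CREB site TGACGTCA was searched too and was in none of the 5. Of the genes tested, 7634 had a promoter in the table, and the HIF core was in 66.1% of these windows, so its presence in 1 promoter says little. Among genes lower by at least 2-fold in the triCH1 lines it was in 45 of 75 (60.0%), and among those higher by at least 2-fold in 26 of 49 (53.1%). CCAAT was in 38.5% of all windows, in 33 of 75 lower genes (44.0%) and in 21 of 49 higher genes (42.9%). TTTGAA was in 11.2% of all windows, in 11 of 75 lower genes (14.7%) and in 6 of 49 higher genes (12.2%), against 16 of 23 genes (69.6%) of the mitosis list described below. TGACGTCA was in 3.48% of all windows, in 2 of 75 lower and 0 of 49 higher genes. The lower genes had a median of 13 CG dinucleotides per window and the higher genes 21, against 22 over all genes.

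The 4 vehicle arrays had correlations of 0.921 to 0.967 over the genes tested. The control lines correlated at 0.944 and the triCH1 lines at 0.954, so the highest value was between a control and a triCH1 line. Arrays of a class were thus not the most alike. The array of flox1 stood apart in RNA quality. For Gapdh the 3′ control probe set gave 2.59 times the signal of the 5′ one, against 1.09 to 1.19 on the other 3 vehicle arrays, and its 18S ribosomal RNA signal was 6001 against 1011 to 1806. Results are therefore also given without it, with flox2 as the only control. Xist, the RNA of the inactive X chromosome, had signals of 84.9 in flox1 and 24.6 in flox2 against 2999 in triCH1flox1 and 3525 in triCH1flox2. Eif2s3y, on the Y chromosome, had 974 and 1509.6 in the control lines against 12.4 and 82.9. The control lines thus had male and the triCH1 lines female patterns. Sex, embryo of origin and CH1 cannot be told apart in any difference between the classes, and leaving out genes of X and Y removes only the sex chromosomes' own genes.

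The targeted genes did not separate the classes. Crebbp had signals of 1425 in flox1, 2022 in flox2, 1437 in triCH1flox1 and 2499.9 in triCH1flox2, a triCH1 minus control difference of 0.16 on the log2 scale (SE 0.292, limma adjusted p = 0.927). Ep300 had 1054, 645, 1319 and 941 in the same order, a difference of 0.41 (SE 0.280, limma adjusted p = 0.773). Crebbp was lower in the 2 lines with a conditional CBP allele and Ep300 in the 2 with a conditional p300 allele, so the ranges of the classes overlapped. That order did not hold in each probe set of Crebbp, one of which had 649 in flox1, 554 in flox2, 376 in triCH1flox1 and 741 in triCH1flox2. The position of these probe sets in the genes was not used here, so the values do not check the loss of CH1.

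In vehicle 19 of 20 tested collagen chains and 18 of 19 contractile genes had lower values in the triCH1 lines, and all 29 tested mitotic genes and 24 of 29 replication genes had higher values. Plac8, Lama4, Col2a1, Dkk3, Thy1 and Mfap5 were among the genes at least 2-fold lower, and Gjb2, Cxcl5, Ncapg2, Egr3 and Ccnb2 among those at least 2-fold higher. None of this passed a test across genes. Of 9344 genes, 0 (0%) passed an adjusted p of 0.05 with limma, the smallest adjusted p was 0.224, and 624 (6.68%) had an unadjusted p under 0.05, 273 of them higher and 351 lower. With 2 lines against 2 an exact two-sided permutation test cannot go below p = 0.333. The limma p-values rest on the spread between single lines, and most of each variance comes from the trend over all genes. That trend had 7.87 prior degrees of freedom beside 2 residual ones.

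Genes are therefore described by a rule of size. A gene is called separated when both triCH1 arrays lay above, or both below, both control arrays and the class means differed by at least 1 on the log2 scale, which is 2-fold. By this rule 61 genes (0.653%) were higher in the triCH1 lines and 95 (1.02%) were lower. Without the size criterion the classes did not overlap for 1797 genes (19.2%) higher and 1751 (18.7%) lower. The 2 control arrays differed by at least 2-fold for 569 genes (6.09%) and the 2 triCH1 arrays for 455 (4.87%), and the class means differed by at least 2-fold for 179 genes. A mean of 2 arrays varies less than a single array, so these counts are not set against each other. The median SE of a difference was 0.249 on the log2 scale. Of the separated genes, 24 of the 61 and 39 of the 95 met the minimum signal only in the class where they were higher, so for these a difference was a condition of entry.

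Plac8, a small cysteine-rich protein first known from placenta, had the widest gap among lower genes with a signal of at least 200 on all 4 arrays. Its signals were 1809 in flox1 and 1937 in flox2, and 619 in triCH1flox1 and 327 in triCH1flox2. Both triCH1 lines were far below both control lines, which lay close together, at a difference of -1.94 on the log2 scale (3.82-fold, SE 0.283, limma adjusted p = 0.224). Col2a1, the collagen of cartilage, had signals of 1473 and 1531 in the control lines and 454 and 543 in the triCH1 lines. The lines of each class were again close, at a difference of -1.50 (SE 0.220, limma adjusted p = 0.224). Thy1, the surface glycoprotein CD90 that marks fibroblasts, had signals of 7728 and 7318 in the control lines and 3718 and 3608 in the triCH1 lines. Its difference was -1.03 (2.04-fold, SE 0.171, limma adjusted p = 0.231).

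**Figure D1:**
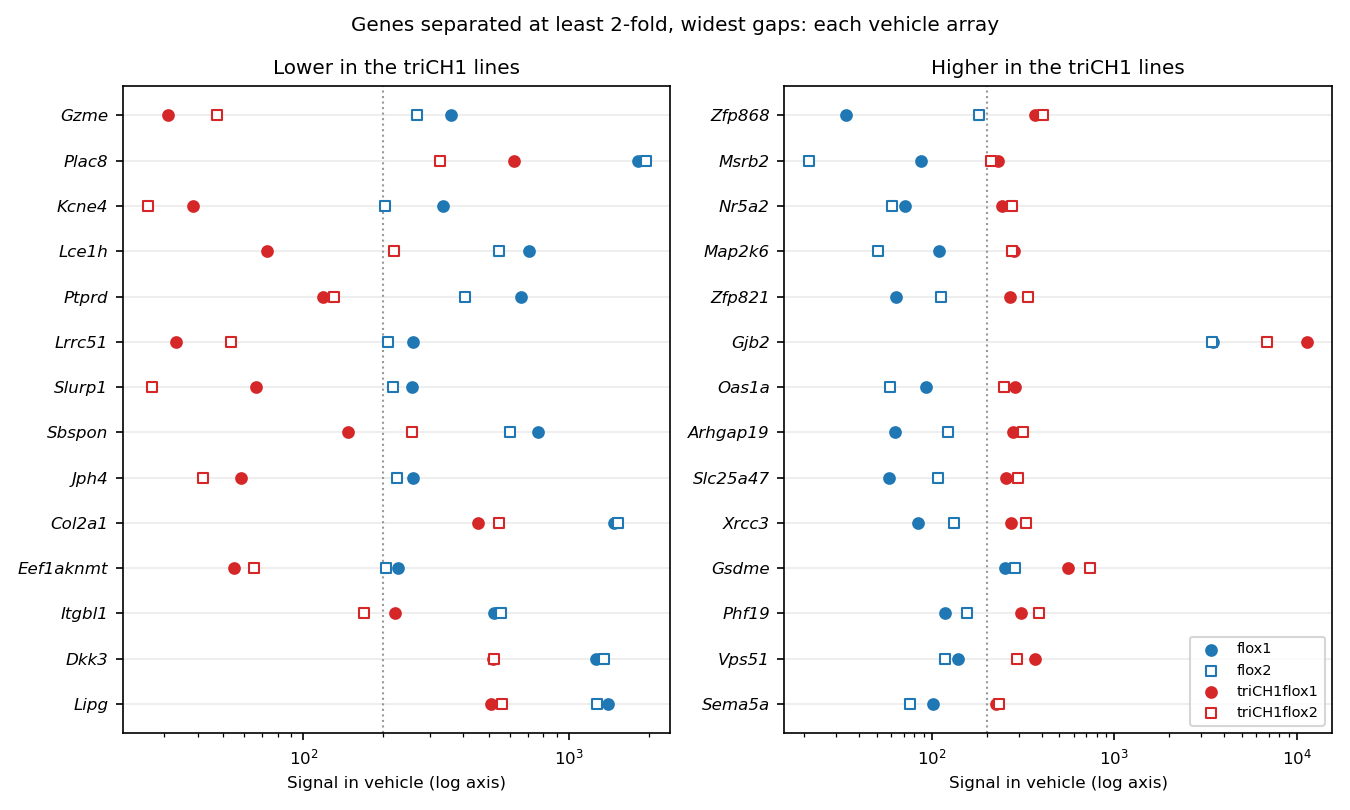
Signal on each vehicle array (log axis) of the 14 genes with the widest gap in each direction, 1 point per array, blue for the control lines and red for the triCH1 lines, filled circles for lines with conditional CBP and open squares for conditional p300. The dotted line is the signal of 200 used as the minimum, and most genes higher in triCH1 lay under it in both control lines, except Gjb2 and Gsdme.

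The 14 lower genes with the widest gaps between the classes were Gzme, Kcne4, Plac8, Col2a1, Jph4, Ptprd, Lrrc51, Dkk3, Slurp1, Eef1aknmt, Lce1h, Lipg, Sbspon and Itgbl1. The plot of signals by array shows that they were of 2 kinds. Plac8, Col2a1, Dkk3, Lipg, Sbspon, Itgbl1, Ptprd and Lce1h had control signals from 404 to 1937. The others had control signals of 203 to 359 and triCH1 signals of at most 66.3, near the bottom of the scale. Gzme, a granzyme, went from 359 and 267 in the control lines to 31.0 and 47.4 in the triCH1 lines, a difference of -2.02 with an SE of 0.712. Kcne4, a potassium channel subunit, had 335 and 203 against 38.4 and 26. The difference of Kcne4 had the opposite sign under DP (0.23), TSA (0.33) and TSA with DP (0.65).

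Dkk3, a secreted member of the Dickkopf family, had signals of 1262 and 1346 in the control lines and 516 and 520.5 in the triCH1 lines. The arrays of a class nearly coincided, and a further probe set of the gene differed by -1.09 beside -1.25 for the one used. Lipg, endothelial lipase, had 1393 and 1276 against 508 and 557, a difference of -1.25 (SE 0.217, limma adjusted p = 0.231). Sbspon, a secreted protein with somatomedin B and thrombospondin domains, had 761 and 597 against 147 and 255. Both probe sets of Sbspon were lower by a like amount, -1.56 and -1.61. Itgbl1, which resembles the beta subunits of integrins, had 520.0 and 554 against 221 and 169.5. Ptprd, a receptor tyrosine phosphatase, had 661 and 404 against 119 and 130.4, and its 3 probe sets disagreed in size, the other 2 lying at -1.45 and -0.09.

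The 14 higher genes with the widest gaps were Nr5a2, Oas1a, Map2k6, Gjb2, Zfp821, Slc25a47, Msrb2, Arhgap19, Sema5a, Zfp868, Vps51, Gsdme, Xrcc3 and Phf19. Only Gjb2 and Gsdme of these 14 had signals of at least 200 on all 4 arrays. Gjb2, which encodes the gap junction protein connexin 26, had signals of 3456 and 3444 in the control lines and 11376 and 6856 in the triCH1 lines. Both triCH1 lines were above the control lines, which nearly matched each other, at a difference of 1.34 (2.54-fold, SE 0.234, limma adjusted p = 0.231). Gsdme, a pore-forming gasdermin, had 251 and 286 against 557 and 737, a difference of 1.12 (SE 0.280). The rest had both control signals at 182 or less. Nr5a2, a nuclear receptor of early development, had 71.6 and 60.3 in the control lines and 242 and 273 in the triCH1 lines. Oas1a, an enzyme of the interferon response, had 92.8 and 59.1 against 285 and 249. Map2k6, a kinase that activates p38, had 109 and 50.5 against 283 and 274, where the flox2 value was close to the offset of 50.

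The flox1 array weighed differently in the 2 directions. Flox1 was the lowest of the 4 arrays for 47 of the 61 higher genes and the highest for 69 of the 95 lower genes. Without it, 18 of the 61 higher genes (29.5%) and 57 of the 95 lower genes (60.0%) were still separated. Of all genes, 84 (0.899%) were separated higher and 117 (1.25%) lower on the 3 arrays left. Those 3 arrays had helped to choose the 61 and 95 genes, so overlap was excluded and only the 2-fold size could fail. The shares therefore say how far the size rested on flox1 and are no separate support. The median difference of the higher genes went from 1.12 to 0.83 and that of the lower genes from -1.19 to -1.09. Kat8, a histone acetyltransferase, shows a case that rested on that array. Its signals were 34.5 in flox1, 339 in flox2, 369 in triCH1flox1 and 538 in triCH1flox2, and the difference of 1.45 became 0.35 without flox1. Plac8, by contrast, was -1.94 with the array and -1.98 without it, and Col2a1 was -1.50 and -1.53.

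The same classes were compared under the other treatments, which use other arrays of the same lines and so give no further lines. Under DP 50 genes (0.535%) were separated higher and 94 (1.01%) lower. Under TSA these numbers were 27 (0.289%) and 66 (0.706%), and under TSA with DP 26 (0.278%) and 93 (0.995%). Of the 95 genes lower in vehicle, 31 (32.6%) were separated lower under DP, 22 (23.2%) under TSA and 27 (28.4%) under TSA with DP, and 15 were so in all. The direction was the same for 82, 76 and 79 of them. Of the 61 higher genes, 8 (13.1%), 1 (1.64%) and 5 (8.20%) were separated higher again, 0 in all treatments, and the direction was the same for 51, 46 and 42. The medians were 1.12 in vehicle, 0.40 under DP, 0.25 under TSA and 0.26 under TSA with DP for the higher genes, and -1.19, -0.80, -0.53 and -0.64 for the lower genes. The vehicle values chose these genes, so their vehicle medians are a description and support nothing. A test of the vehicle difference against the mean difference under the other treatments called 0 genes with limma. Of the 9344 genes, 427 had an unadjusted p under 0.05 in it, fewer than the 624 (6.68%) of the vehicle comparison.

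**Figure D2:**
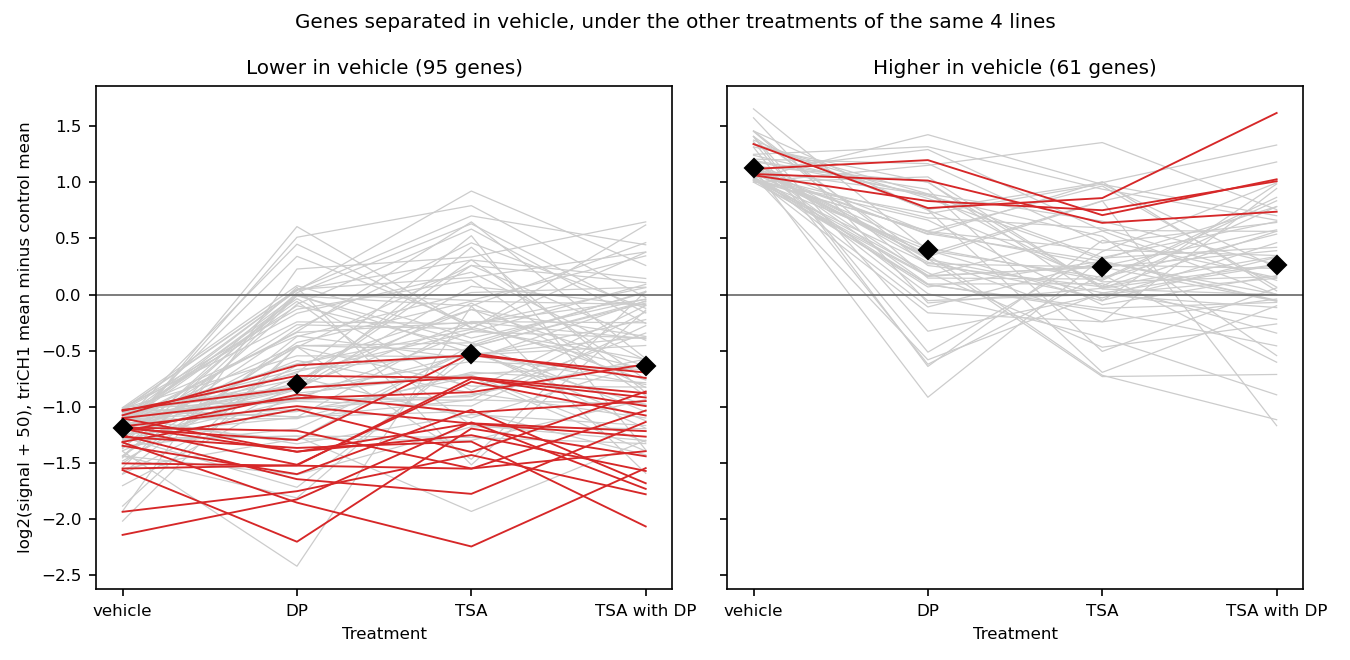
Difference of class means in log2(signal + 50) in vehicle, DP, TSA and TSA with DP for the 95 genes separated lower (left) and the 61 separated higher (right) in vehicle, 1 line per gene and a black diamond at the median. Red lines are the genes whose 8 triCH1 arrays lay apart from all 8 control arrays, 21 on the left and 4 on the right, and most of the other lines lie nearer 0 outside vehicle.

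Over all 16 arrays, 8 from each class, 24 genes (0.257%) had every triCH1 array above every control array and 69 (0.738%) had every triCH1 array below. Among the genes separated in vehicle these were 4 of 61 and 21 of 95. The 4 higher genes were Ncapg2, Egr3, Ctse and Ccnb2. The 21 lower genes were Plac8, Col2a1, Dkk3, Sbspon, Itgbl1, Igfbp5, Lama4, Ackr3, Thy1, Kif26b, Mcpt8, Mfap5, Ift27, Thbs2, Adamts12, Fam20a, Itga8, Pth1r, Lrrc15, Aqp1 and Tcfl5. These 25 were singled out after their values were seen. When the 4 arrays of each line were averaged and the lines compared 2 against 2, 8 genes passed with limma at an adjusted p of 0.0477, all lower: Plac8, Dkk3, Thy1, Ackr3, Adamts12, Ankrd37, Ckb and Dstn. These averages pool vehicle with the treatments and are not a vehicle result. Ankrd37 differed by -2.42 under DP and -1.59 under TSA with DP, against -1.40 in vehicle and -0.10 under TSA.

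Several of the 21 encode matrix or its receptors. Lama4, a laminin chain of basement membranes, had signals of 781 and 986 in the control lines, 352 in triCH1flox1 and 60.1 in triCH1flox2. The triCH1 lines differed widely from each other, and the difference of -2.14 had an SE of 0.508. Mfap5, a microfibril protein, had 2327 and 2656 against 1214 and 951, a difference of -1.17 (SE 0.224), with -1.36 in a further probe set. Thbs2, the matricellular protein thrombospondin 2, had 2002 and 1943 against 1078 and 736, a difference of -1.10 (SE 0.240). All 3 probe sets of Thbs2 were lower. Itga8, the integrin chain that binds nephronectin, had 670.3 and 835 against 218 and 387. Adamts12, a secreted protease, had 1279 and 1536 against 704 and 498.

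Others are of mixed kinds, among them membrane proteins, a secreted binding protein and a kinesin family member. Ackr3, the scavenging receptor for the chemokine CXCL12, had signals of 899 and 932 in the control lines and 338 and 409 in the triCH1 lines, a difference of -1.19 (SE 0.235). Igfbp5, which binds insulin-like growth factors, had 662 and 495 against 213 and 178, a difference of -1.35, while a further probe set gave -0.40. Kif26b, a kinesin family member of mesenchyme, had 1865 in flox1 and 862 in flox2 against 418 and 385, and its difference went from -1.55 to -1.01 without flox1. Aqp1, a water channel, had 1244 and 1748 against 473 and 811. Lrrc15, a leucine-rich repeat membrane protein of activated fibroblasts, had 778 and 609 against 383 and 153, and under TSA its difference was -2.24. That the classes lie apart in every treatment is how these genes were chosen.

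Of the 4 higher genes, 2 act in chromosome segregation. Ncapg2, a subunit of condensin II, had signals of 618 and 889 in the control lines and 1486 and 1759 in the triCH1 lines, a difference of 1.07 (SE 0.243, limma adjusted p = 0.519). Ccnb2, cyclin B2, had 1436 and 2506 against 3294 and 4904, a difference of 1.06 (SE 0.292), or 0.67 without flox1. Egr3, an immediate early transcription factor, had 295 and 387 against 1052 and 594. Ctse, the protease cathepsin E, had 127 and 353 against 529 and 737, and a further probe set of the gene gave -0.11. Flox1 was the lowest of the 4 arrays for each of these genes.

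The 26 gene lists were compared next, each by its counts and median beside those of all 9344 genes. Over all genes the median difference was -0.0047, 61 were separated higher and 95 lower, and 4622 had a positive and 4722 a negative difference. Counts without overlap in the lists are to be read against the 19.2% higher and 18.7% lower of all genes, and counts at an unadjusted p under 0.05 against 6.68%. In each list 0 members passed the adjusted threshold. The largest medians on the positive side were those of mitosis and DNA replication, and on the negative side those of collagen chains, contractile genes and the Wnt pathway.

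**Figure D3:**
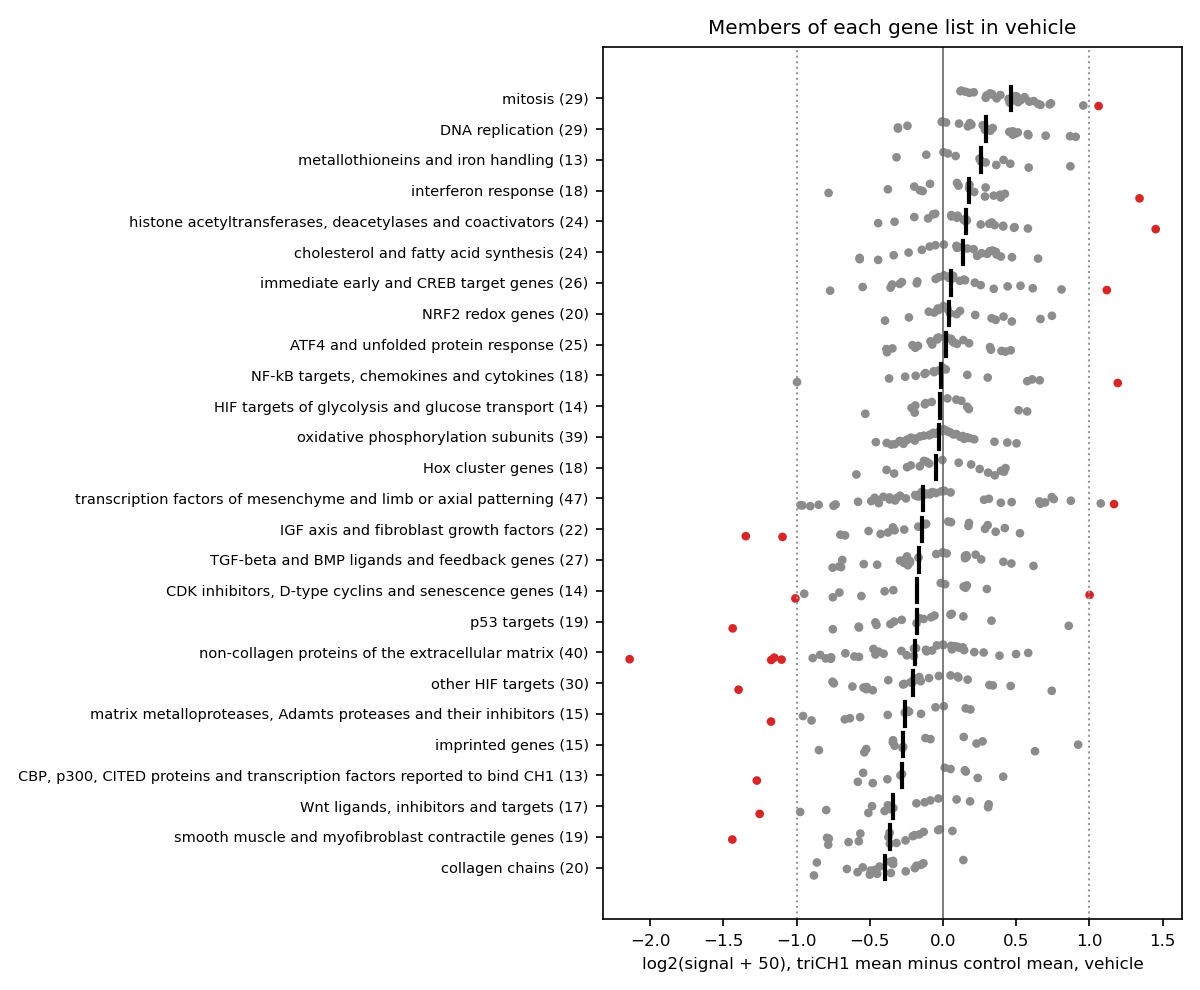
Each grey or red point is 1 tested member of a gene list, placed at its triCH1 minus control difference in log2(signal + 50) in vehicle, with the number of tested members in parentheses. Red marks separated genes, the black bar is the list's median, and dotted lines mark a difference of 1 in either direction. Medians run from 0.47 for mitosis to -0.40 for collagen chains.

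Mitotic genes, which drive chromosome condensation, spindle assembly and division, had higher signals in the triCH1 lines. All 29 tested members of 30 had a positive difference, the classes did not overlap for 20, and 11 had an unadjusted p under 0.05, while 1 (Ccnb2) was separated. The differences ran from 0.12 to 1.06, with a median of 0.47. Kif20a, a kinesin of cytokinesis, had 731 in flox1, 1381 in flox2, 1742 in triCH1flox1 and 2302 in triCH1flox2. Mad2l1, a spindle checkpoint protein, had 2069.8 in flox1 and 3628 in flox2 against 4269 and 4902. Cenpa, the centromeric histone, had 2043 and 2625 against 3457 and 3966, a difference of 0.67 (SE 0.213). In these genes flox1 was the lowest array and the triCH1 lines were above flox2 by less than they were above flox1. Over the list the median distance from a gene's own 4-array mean was -0.45 in flox1, 0.00 in flox2, 0.11 in triCH1flox1 and 0.35 in triCH1flox2, and the median difference without flox1 was 0.25.

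Genes of DNA replication had a like but smaller difference. Of 29 tested members of 33, 24 had a positive difference, the classes did not overlap for 20 higher and 1 lower, 8 had an unadjusted p under 0.05, and 0 were separated. The median was 0.29 and was 0.20 without flox1. Prim1, the catalytic subunit of primase, had signals of 941 and 1255 in the control lines and 1724 and 2511 in the triCH1 lines, a difference of 0.91 (SE 0.256, limma adjusted p = 0.700). Rfc3, a subunit of the clamp loader, had 352 and 379 against 579 and 863. Under DP, TSA and TSA with DP the list medians were 0.39, 0.24 and 0.40, and those of mitosis were 0.52, 0.38 and 0.45. The lines are the same in each treatment, so these repeat values do not add lines. In bulk RNA a higher share of dividing cells and more of these mRNAs per dividing cell cannot be told apart, nor can fewer cells of a type and less RNA per cell for the lower genes.

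The list of CDK inhibitors, D-type cyclins, pocket proteins and senescence genes went both ways. Of its 14 tested members 6 had a positive and 8 a negative difference, the classes did not overlap for 6 lower and 1 higher, and the median was -0.18. The 6 lower were not all inhibitors, since the cyclin Ccnd2, which drives the cycle, was among them at -0.56. Cdkn2b, the inhibitor p15 of the kinases CDK4 and CDK6, had signals of 6610.4 and 4719 in the control lines and 2928 and 2586 in the triCH1 lines, and was separated lower at -1.01 (SE 0.216). Cdkn1a, the inhibitor p21 and a target of p53, had 9978 and 8691 against 6454 and 4697, a difference of -0.75. Rbl1, the pocket protein p107, was the other separated member and was higher, with 356 and 433 against 669 and 1041. Of 19 tested p53 targets 14 had a negative difference, 9 were lower without overlap and 0 higher, and the median was -0.18, or -0.09 without flox1. Pmaip1, the proapoptotic protein Noxa, was separated at -1.44 but varied within each class, with 1905 and 796 in the control lines and 664 and 266 in the triCH1 lines.

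Collagens, the main fibrous proteins of the matrix, had the lowest median of the 26 lists. Of 20 tested chains, 19 had a negative difference and 11 were lower without overlap, 4 had an unadjusted p under 0.05 and 0 were separated, with a range from -0.88 to 0.14 and a median of -0.40. Col11a1, a fibril chain, had signals of 5354 and 4930.4 in the control lines and 2327 and 3283 in the triCH1 lines, a difference of -0.88 (SE 0.215), while a further probe set gave -0.10. The basement membrane chains Col4a1 and Col4a2, whose genes lie side by side, were at -0.36 and -0.50. Col8a1, a short-chain collagen, had 8362 and 6864 against 5018 and 6099. Col1a1, a chain of type I collagen, had 36214 and 33480.5 against 30148 and 33386, a difference of -0.13 (SE 0.100), so that flox2 and triCH1flox2 nearly met. Without flox1 the median of the list was -0.33, and under DP, TSA and TSA with DP it was -0.29, -0.31 and -0.37.

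Of 40 tested matrix proteins other than collagens, 26 had a negative and 14 a positive difference, 12 were lower and 1 higher without overlap, and the median was -0.19. The 4 separated members, Mfap5, Thbs2, Lama4 and Eln, were all lower. Eln, elastin, had signals of 319.8 and 611 in the control lines and 122 and 237 in the triCH1 lines. Fbln5, a protein of elastic fibres, had 7633 and 10925 against 4840.3 and 5911, a difference of -0.77 (SE 0.206). Of 15 tested matrix proteases and inhibitors, 12 were negative and 8 lower without overlap, and Adamts12 was the 1 separated member. Mmp2, gelatinase A, had 4464 and 3157 against 1790.5 and 2215, a difference of -0.90 (SE 0.234), with -1.05 in a further probe set. The medians without flox1 were -0.32 for matrix proteins and -0.41 for proteases, both farther from 0 than with it.

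Contractile genes of smooth muscle and myofibroblasts were lower as well. Of 19 tested members, 18 had a negative difference, 13 were lower without overlap, 6 had an unadjusted p under 0.05 and 1, Synpo2, was separated, and the median was -0.36. Lmod1, which nucleates actin filaments, had signals of 1017 and 990.1 in the control lines and 661 and 477 in the triCH1 lines. Mylk, the kinase of myosin light chains, had 969 and 1205 against 552 and 817. Acta2, the smooth muscle actin, was abundant on every array and differed by -0.26 (SE 0.104). The median without flox1 was -0.20, and it was -0.20 under DP, -0.23 under TSA and -0.09 under TSA with DP. Markers of pericytes and vascular smooth muscle were looked at beside these genes. The sum of their signals over 9 genes ranged from 3921 to 4035 for control and from 2417 to 2443 for triCH1. Cspg4, with 2268 and 2409 against 1402 and 1257, made up most of that sum on every array, so the sum does not describe the other markers. All 5 tested members had a negative difference, but the classes overlapped for Mcam, with 229 and 357 against 206.5 and 262. Abcc9, Kcnj8 and Anpep were under 200 on all 4 arrays, and Abcc9 was higher in the triCH1 lines. The part of such cells in the result was not tested.

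**Figure D4:**
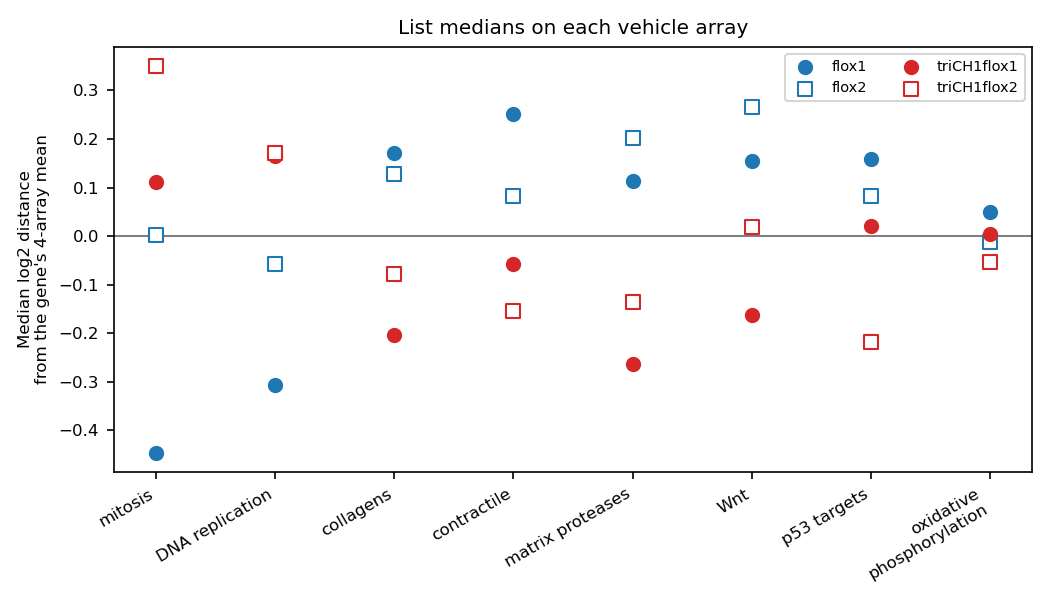
For 8 gene lists, the median over members of the log2 distance of each vehicle array from the gene's mean over the 4 arrays, 1 point per array, blue for control and red for triCH1 lines, filled circles for conditional CBP and open squares for conditional p300. For mitosis and DNA replication flox1 lies far below the other arrays, at -0.45 and -0.31, while for collagens both control lines lie above both triCH1 lines.

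Fibroblast markers were present, as the label says. All 11 fibroblast markers were on the array, 9 had a signal of at least 200 on all 4 vehicle arrays and 0 were under 200 on all, and their summed signal ranged from 177987 to 186646 for control and from 153843 to 165019 for triCH1. Col1a1, Col1a2, Col3a1, Vim and S100a4 made up most of that sum on every array, so it does not describe the other markers. Of 10 tested members 7 had a negative and 3 a positive difference, and 5 were lower without overlap. The classes overlapped for Ddr2, Lum and Pdgfra. Thy1 was the 1 separated member. Of the markers of other cell types, those under 200 on all 4 arrays were 8 of 11 for endothelium (among them Pecam1, Cdh5, Kdr and Tek), 7 of 12 for macrophages (among them Cd68, Itgam and Lyz2), 11 of 16 for skeletal muscle (among them Myod1, Myog and Myf5) and 7 of 7 on the array for erythroid cells. Others were above it. Flt1 had 226 and 432 in the control lines against 129 and 315, Eng 339 and 309.9 against 164 and 222, and Csf1r 78.6 and 318 against 230.3 and 375. Acta1, the actin of skeletal muscle, had 6759 and 7447 against 6353 and 4841. The skeletal muscle sum ranged from 8493 to 8501 for control and from 6005 to 7440 for triCH1. Acta1 made up most of that sum on every array, so the sum does not describe the other markers of the list. The part of muscle cells in the contractile result was not tested. The endothelial sum ranged from 1044 to 1397 for control and from 694 to 886 for triCH1. The macrophage sum was 1085 to 1275 against 976 to 1063, and that of epithelium was 1831 to 3192 against 1794 to 1937. For cartilage and bone, whose marker Col2a1 is among the leading lower genes, the sum was 3018 to 3279 against 1682 to 2603. That sum includes Col2a1 itself, with 1473 and 1531 in the control lines against 454 and 543, so it does not describe the other markers. Matn1 and Chad were under 200 on every array, and Sox9, the regulator of cartilage, had 85.5 and 275 in the control lines against 202 and 447. The part of cartilage-like cells in the Col2a1 difference was not tested. The neural sum was 5932 to 9429 against 5214 to 5573, with flox1 highest, and that of adipocytes was 1718 to 2118 against 1035 to 1440.

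Of the growth factor lists, that of Wnt had the largest shift, and its median without flox1 was -0.43. Of 22 tested genes of the IGF axis and of fibroblast growth factors, 8 were lower and 4 higher without overlap, with a median of -0.15, or -0.23 without flox1, and 2 binding proteins, Igfbp2 and Igfbp5, were separated lower. Igfbp2 had signals of 3291 and 5024 in the control lines and 1632 and 2154 in the triCH1 lines. Igfbp7, a further secreted binding protein, had 11427 and 9887 against 7384 and 6015, a difference of -0.67 (SE 0.169). Of 17 tested Wnt genes 13 were negative and 4 lower without overlap, near the share of all genes, the median was -0.34, and Dkk3 was the 1 separated member. Of 27 tested genes of the TGF-beta and BMP pathways, 9 were lower and 1 higher without overlap, with 0 separated and a median of -0.17 that was -0.28 without flox1 and 0.16 without flox2.

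Transcription factors of mesenchyme had 14 of 47 tested members lower and 6 higher without overlap, with a median of -0.14. Zeb2, a repressor of the epithelial state, had signals of 1208 and 1519 in the control lines and 797 and 613 in the triCH1 lines, but its 2 other probe sets lay at 0.25 and 0.86. Snai2, another such repressor, had 7918 and 5925 against 3407 and 4830.1, a difference of -0.75, and under DP its difference was 0.10. Hic1 was the 1 separated member, higher with 104 in flox1 and 286 in flox2 against 363 and 584, and 0.61 without flox1. The 18 tested Hox genes, which hold the positional identity of fibroblasts, had 3 higher and 3 lower without overlap, 0 separated, and a median of -0.05 that was 0.13 without flox1. Hoxa9 had 1009 and 1010.5 in the control lines and 1291 and 1317 in the triCH1 lines. Imprinted genes had 4 of 15 lower and 1 higher without overlap, at a median of -0.27.

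Targets of HIF were compared because HIF recruits CBP and p300 through CH1. In vehicle the 14 tested targets of glycolysis and glucose transport had 3 higher and 2 lower without overlap, 0 separated, and a median of -0.02. Slc2a1, the glucose transporter GLUT1, had signals of 4502 and 4013 in the control lines and 5239 and 4343 in the triCH1 lines, a difference of 0.16 (SE 0.190). Bnip3, a mitophagy receptor, had 1021 and 868 against 1036 and 1093. Pdk1, a kinase that restrains pyruvate oxidation, had 155 and 212 against 365 and 214. The ranges of the classes overlapped or nearly met for these genes. Of 30 other HIF targets, 13 were lower and 5 higher without overlap, 5 had an unadjusted p under 0.05 on the lower and 1 on the higher side, and the median was -0.21, or -0.14 without flox1. Ankrd37 was the 1 separated member, with 582 in flox1 and 204 in flox2 against 95.6 and 109, a difference of -1.40 that was -0.74 without flox1. Egln3, a prolyl hydroxylase that acts on HIF, had 259 and 239 against 214 and 152, a difference of -0.37 (SE 0.455). Vegfa, a growth factor for vessels, had 592 and 574 against 1101 and 611. Under DP, when HIF is active, the medians of the 2 lists were -0.28 and -0.70, with Egln3 at -2.44 and Ankrd37 at -2.42.

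Of 13 tested genes for CBP, p300, CITED proteins and factors reported to bind CH1, 4 were lower and 1 higher without overlap. The median was -0.28, was -0.09 without flox1 and was 0.01 with filter and probe set chosen on 16 arrays. Hif1a had signals of 6023 and 6516 in the control lines and 7449 and 7335 in the triCH1 lines, a difference of 0.24 (SE 0.161). Arnt, the partner of HIF-1 alpha on DNA, had 1003 and 878 against 703 and 529, while a further probe set gave 0.16. Cited2, which competes with HIF for CH1 and is itself a HIF target, had 5587 and 6292 against 4569 and 3929, a difference of -0.48 (SE 0.183, limma adjusted p = 0.747), with -1.35 in a further probe set. Tfap2a, an AP-2 factor that works with CITED proteins, was the 1 separated member, with 377 and 272 against 75.4 and 138. Under DP, TSA and TSA with DP its difference was -0.47, 0.26 and 0.11.

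Inflammatory and early-response genes gave single separated members rather than shifts of a list. Among 18 tested NF-kB targets, chemokines and cytokines 3 were higher and 4 lower without overlap, with a median of -0.02 that was 0.04 without flox1. Cxcl5, a chemokine for neutrophils, had signals of 619 and 827 in the control lines and 1983 and 1458 in the triCH1 lines and was separated at 1.19 (SE 0.248, limma adjusted p = 0.392), yet its difference under TSA was -0.51. Ccl7, a chemokine for monocytes, went the other way, with 671 and 763 against 386 and 288. Among 18 tested interferon genes Oas1a was the 1 separated member and 4 were higher and 2 lower without overlap, at a median of 0.18 that was -0.06 without flox1. Among 26 immediate early and CREB target genes Egr3 was separated, 6 were higher and 2 lower without overlap, and the median was 0.05, or -0.06 without flox1. Dusp1, a phosphatase of MAP kinases, had 5013 and 6235 against 3395 and 3121.

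The 5 lists of metabolism and stress given next had 0 separated members, and that of acetyltransferases had 1. Oxidative phosphorylation had 7 of 39 tested members higher and 8 lower without overlap and a median of -0.03, or -0.01 without flox1. The ATF4 and unfolded protein response had 4 of 25 higher and 5 lower and a median of 0.02, or -0.03 without flox1. NRF2 redox genes had 4 of 20 higher and 0 lower and a median of 0.04, or 0.0074 without flox1. Cholesterol and fatty acid synthesis had 7 of 24 higher and 6 lower, with a median of 0.14 that was -0.03 without flox1. Metallothioneins and iron handling had 4 of 13 higher and 0 lower, with a median of 0.26 that was 0.11 without flox1. Histone acetyltransferases, deacetylases and coactivators had 6 of 24 higher and 0 lower at a median of 0.15, or 0.10 without flox1, and Kat8 was the 1 separated member.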

How the data were processed

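Total RNA was hybridised to 1 Affymetrix mouse array for each of 4 fibroblast lines under 4 treatments. Per the labels, the authors scaled every array to a target intensity of 500 with Affymetrix software, and these deposited intensities were used as given. With arrays their number limits the precision. Of 45101 probe sets, 34945 had 1 gene symbol in the platform annotation used, 932 had several and 9160 none, and 34741 of the former matched a RefSeq gene. Genes on X and Y were left out. Where several of the 15506 passing probe sets shared a gene (3902 genes), the one brightest on average in vehicle stood for it. Values were log2(signal + 50). limma 3.58.1 in R 4.3.3 was fitted to the vehicle arrays with 2 class means and a variance trend (2 residual and 7.87 prior degrees of freedom), and p-values were adjusted by Benjamini and Hochberg over all genes. The steps were tested on simulated data.

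Named genes were the 14 separated genes with the widest gap in each direction whose signal was at least 200 on both arrays of the higher class, up to 4 members of each pathway list with the smallest p, and Crebbp, Ep300, Cited2, Hif1a, Arnt, Vegfa, Slc2a1, Bnip3, Egln3 and Pdk1. The comparison, the 26 pathway and 10 marker lists and this rule were chosen with earlier results of these data known. Col1a1, Acta2, Cspg4, Eln, Synpo2, Hic1, Sox9, Malat1, Ckb, Dstn, Nuak1, Flt1, Eng, Csf1r, Acta1 and genes called apart on all arrays were named after their values were seen, as were the promoter motifs and the test of vehicle against the other treatments. Alternatives were other offsets, filters, normalizations, probe set rules and models, and leaving out each array. Lines with the same number share only the conditional gene, and their deviations from the class means correlated at 0.0766.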

Additional observations from a re-analysis of the deposited data

Results flagged for a closer look

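Among the 14 leading genes of each direction, 7 had classes that did not overlap one way in vehicle and the opposite way under another treatment. How many of all 9344 genes did so was not counted. In vehicle alone 19.2% of all genes were higher and 18.7% lower without overlap, so the 7 are listed only as a description. Nr5a2, higher in the triCH1 lines in vehicle, had a difference of -0.64 under DP, as did Zfp821 (-0.51) and Slc25a47 (-0.62). Msrb2 was at -0.69 under TSA and Vps51 at -1.17 under TSA with DP. Of the lower genes, Kcne4 was at 0.33 under TSA and Eef1aknmt at 0.38 under TSA with DP. The difference between vehicle and that single treatment was not tested for these genes. The test of vehicle against the mean of the other treatments gave each an adjusted p of 0.939 with limma, and all had vehicle signals of 21.3 to 367.

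Data outside the comparison also held separated features. Of 304 genes on X and Y that met the minimum signal, 4 were separated higher (Xist, Rbmx, Taf9b, Zfp280c) and 4 lower (Eif2s3y, Tnmd, Cacna1f, Fgf13). Of 1487 probe sets without a gene name that met it, 28 were separated higher and 23 lower.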

How the results depend on the processing

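The number of separated genes depended on the offset and on the filter for dim genes. It was 6 higher and 24 lower with an offset of 200, 207 and 475 with no filter, 19 and 39 with a mean signal of at least 400, 103 and 203 with filter and probe set chosen on 16 arrays, and 7 and 35 on line means. An offset of 16, quantile normalization and the mean of all probe sets kept both counts within 1.5 times. Without 1 array in turn, 75 to 346 genes were separated higher and 117 to 278 lower. The 346 and 264 without flox2 leave flox1 as the only control, while 84 and 117 were separated without flox1. Without triCH1flox1 the counts were 155 and 278, and without triCH1flox2 they were 75 and 187. The lone array of a class is then assumed to vary like the other pair.

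Past the adjusted threshold of limma there were 0 higher and 3 lower genes with 16 arrays and line as a random block (Plac8, Thy1, Dstn), 0 and 8 on line means, and 1 (Xist) and 1 (Eif2s3y) with all chromosomes. The random block used 1 correlation of 0.138 for all genes. That fit thus treats the arrays of a line almost as separate replicates, though the classes differ only between 4 lines. With the replicate block, in which lines of the same number are paired, 1 gene was higher (Gjb2) and 6 lower (Col2a1, Plac8, Malat1, Nuak1, Pmaip1, Ckb). These lines share only a number and the conditional gene. Without 1 array in turn 0 to 36 genes passed higher and 0 to 14 lower, the most without flox2 (36 and 13) and without triCH1flox1 (1 and 14). The other settings gave 0. All 56 separated genes that are named kept their direction in each setting that measured them. With another offset, with another model of the vehicle arrays or without 1 array this could not fail, since the rule of separation allows no overlap of the classes. Of 26 list medians, 14 kept their sign, mitosis at 0.25 to 0.66 and collagens at -0.45 to -0.25. Genes under a signal of about 200 have the least certain folds. The cause of these movements was not tested.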
